A study of Homo sapiens with 6 samples.

Results

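The 7 genes described here encode proteins that coat cytosolic lipid droplets (PLIN2, CIDEC, PLIN1 and PLIN5) or that break stored fat down and carry its products (LIPE, FABP3 and AQP7). They were taken by gene name from the authors' deposited comparison of HCCLM3 cells, an established human hepatocellular carcinoma line, with and without ginkgolic acid, and they are 7 of the 403 genes in that table. All samples were wild-type HCCLM3 cells kept for 24 h with either 10 µM ginkgolic acid or the vehicle DMSO, with 3 RNA-seq libraries in each group. Ginkgolic acid is an alkylated salicylic acid from Ginkgo biloba, and the series title asks about ferroptosis, a cell death driven by oxidised membrane lipids. The labels do not say whether the replicates were separate cultures, so spreads given here are those between libraries and may be technical.

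The table holds only genes that the authors had called, each with an adjusted p under 0.05 and a log2 fold change beyond 1 in either direction, and the members were selected from it by name with their log2 fold changes in this same comparison in view. Their change is therefore given as a description and without a test. In the authors' deposited table all 7 members were called higher with ginkgolic acid, as were 62.8% of the table's genes and 1.57% of the 16104 genes tested, a number inferred from the ratio of adjusted to raw p-values. CIDEC, at a log2 fold change of 1.06, and PLIN2, at 1.07, were the members nearest to the authors' limit of 1. Values are read counts divided by a size factor for each library, called normalised read counts. Over the table's genes the libraries held between 67006 and 98627 reads, and their full depth is unknown. Read numbers given here are inferred from the common step of a library's values, since the table gives normalised values.

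Neutral fat is stored as a core of triglyceride under a phospholipid layer studded with coat proteins. Perilipins shield that core from lipases and set when they gain access, CIDE proteins let droplets exchange lipid and grow, and lipolysis releases fatty acids and glycerol in successive steps. Fatty acids are then carried by binding proteins to mitochondria or to nuclear receptors of the PPAR family, for which they are ligands, and glycerol leaves through aquaglyceroporins. In hepatocytes PLIN2 is the abundant coat, whereas PLIN1, CIDEC, LIPE and AQP7 are best known from adipocytes and PLIN5 and FABP3 from heart and other oxidative muscle.

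The stretches upstream of the members' start sites are shown because several of these genes are textbook PPAR targets. RefSeq (GRCh38.p14) gave 9 start sites for the 7 members, with 2 each for CIDEC and LIPE, and 250 bases before each were searched on both strands for AGGTCA, the half-site of many nuclear receptors. The motif AGGTCANAGGTCA, the direct repeat with 1 base between its repeats that PPAR and RXR bind as a pair, was searched with up to 2 mismatches, and any hit may overlap an AGGTCA hit. The E-box CACGTG, the TATA-box letters TATAAA, the GC-box letters GGGCGG and the CCAAT box were searched too, without mismatches. Below are the windows with a hit to the first 4 of these motifs, PLIN2 and AQP7, and those of the members with the largest fold changes, FABP3 and LIPE (the LIPE start site farther upstream). Capitals mark hits to these 4 motifs on either strand. All are on the minus strand and read 5′ to 3′ towards the gene, from chr9:19127493-19127742 for PLIN2, chr9:33402569-33402818 for AQP7, chr1:31373077-31373326 for FABP3 and chr19:42427389-42427638 for LIPE.
PLIN2: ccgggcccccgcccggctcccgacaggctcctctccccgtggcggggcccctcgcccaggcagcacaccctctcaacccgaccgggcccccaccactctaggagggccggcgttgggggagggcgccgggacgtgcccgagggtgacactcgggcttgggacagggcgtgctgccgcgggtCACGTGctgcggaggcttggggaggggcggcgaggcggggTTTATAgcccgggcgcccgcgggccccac
AQP7: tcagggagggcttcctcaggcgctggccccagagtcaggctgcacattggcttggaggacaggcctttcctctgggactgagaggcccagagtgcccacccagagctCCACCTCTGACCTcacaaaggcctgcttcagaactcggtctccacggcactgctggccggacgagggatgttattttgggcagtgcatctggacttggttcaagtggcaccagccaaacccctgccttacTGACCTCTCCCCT
FABP3: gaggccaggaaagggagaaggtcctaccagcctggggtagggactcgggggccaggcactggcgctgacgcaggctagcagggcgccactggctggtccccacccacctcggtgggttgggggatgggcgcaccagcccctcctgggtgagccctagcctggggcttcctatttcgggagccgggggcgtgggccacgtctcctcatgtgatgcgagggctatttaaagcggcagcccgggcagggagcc
LIPE: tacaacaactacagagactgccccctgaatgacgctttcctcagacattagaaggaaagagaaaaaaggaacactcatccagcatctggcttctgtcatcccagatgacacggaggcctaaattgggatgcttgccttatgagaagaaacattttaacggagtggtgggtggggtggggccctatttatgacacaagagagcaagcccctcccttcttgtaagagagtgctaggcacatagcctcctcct

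AQP7 was the member with a match to the PPAR direct repeat, and it had 2 of them. With the start site at 0, the matches began at -143 and -13, each on the opposite strand with 2 mismatches and each overlapping an AGGTCA hit. Of 35116 RefSeq promoter windows of this length, 2.57% held such a match and 12.1% held AGGTCA. The PLIN2 window held CACGTG at -69, as did 6.34% of all windows with that motif anywhere, and TATAAA on the opposite strand at -29, against 10.7%. GGGCGG was in 4 of the 9 member windows (42.6% of all windows) and CCAAT in 4 (32.0%). GC content ran from 48.8% in the upstream LIPE window to 78.0% for PLIN2, around a median of 58.0% for all windows. A match is a string of letters and not a bound site, and these windows say nothing of enhancers farther away.

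PLIN2, the coat protein that is stable only while bound to lipid, was by far the most abundant member. Its DMSO libraries read 2917, 3435 and 3056 normalised read counts and its ginkgolic acid libraries 6285, 6986 and 6432. The lowest ginkgolic acid library lay 1.83 times above the highest DMSO library, with replicate 2 the highest in both groups. The mean went from 3136 ± 268 to 6568 ± 370 (SD, n = 3 each), 2.09-fold, or 1.07 ± 0.07 (SE) on the log2 scale. PLIN2 had the 4th highest DMSO level of the 403 genes before correction for length. Its gene lies on the minus strand of chromosome 9 (19108375 to 19149290, GRCh38, with 5086 exonic bases).

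CIDEC, which sits at contact sites between droplets and lets them fuse, followed at a lower level and nearly the same fold. It read 524, 441 and 523 with DMSO and 1136, 1005 and 956 with ginkgolic acid, so the groups were apart by a factor of 1.82. The fold of means was 2.08 and the log2 fold change 1.06 ± 0.10 (SE). CIDEC lies on chromosome 3 (9866711 to 9880254, minus strand) and has 1926 exonic bases. Per kilobase of that length its DMSO level was 258 ± 24.7 (SD, n = 3) normalised reads, against 617 ± 52.8 for PLIN2.

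The other coat genes were scarce. PLIN1, the adipocyte perilipin that holds back lipolysis until it is phosphorylated, read 28.0, 20.0 and 27.0 with DMSO and 53.0, 56.5 and 62.3 with ginkgolic acid. All 3 ginkgolic acid libraries were above all DMSO libraries, by a factor of 1.89, and the fold of means was 2.29 (log2 fold change 1.18 ± 0.22, SE). PLIN1 is on chromosome 15 (89664365 to 89679427, minus strand), where PEX11A overlaps it on the same strand without sharing exonic bases.

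PLIN5, which tethers droplets to mitochondria in oxidative tissue, had the largest fold of means among the coat genes. It read 30.0, 21.9 and 24.0 with DMSO and 58.3, 66.2 and 80.7 with ginkgolic acid, where replicate 3 stood highest. The groups did not overlap and differed 2.70-fold in their means (log2 fold change 1.40 ± 0.22, SE). Its ginkgolic acid libraries lay at 2.30 to 3.19 times the DMSO mean and those of PLIN1 at 2.12 to 2.49. These ranges overlapped, so no difference in fold between PLIN5 and PLIN1 is read. PLIN5 is on chromosome 19 (4522531 to 4535224, minus strand). An annotated protein-coding gene on the same strand, AC011498.4, shares 21.7% of the exonic bases of PLIN5, so some of these reads may belong to it or have been left uncounted.

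LIPE, hormone-sensitive lipase, which hydrolyses diacylglycerol and cholesteryl esters, was the scarcest member per kilobase and had a fold of about 4. Its libraries read 15.0, 17.2 and 14.0 with DMSO and 63.6, 57.6 and 64.9 with ginkgolic acid. The lowest ginkgolic acid library stood 3.35 times above the highest DMSO library, the widest gap of the 7 genes. The fold of means was 4.03 and the log2 fold change 1.95 ± 0.22 (SE). These values rest on an inferred 47 reads in the DMSO group and 187 with ginkgolic acid. LIPE lies on chromosome 19 (42401507 to 42427426, minus strand), and the antisense transcript LIPE-AS1 covers 9.60% of its exonic bases; the sources used here do not say whether strand was kept in counting.

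FABP3, a small cytosolic carrier of long-chain fatty acids, had a fold of the same size at a higher level. It read 41.0, 36.2 and 32.9 with DMSO and 148, 178 and 121 with ginkgolic acid. The groups were apart by a factor of 2.95 although the ginkgolic acid libraries scattered widely, with replicate 2 high and replicate 3 low. The fold of means was 4.06 and the log2 fold change 1.98 ± 0.19 (SE). FABP3 is on chromosome 1 (31365625 to 31376850, minus strand), and with 1026 exonic bases it is the shortest of the 7 genes.

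AQP7, the channel through which adipocytes release glycerol, read 238, 183 and 229 with DMSO and 476, 540 and 547 with ginkgolic acid. DMSO replicate 2 was the lowest library, and the groups stood 1.998-fold apart at their nearest. The fold of means was 2.40 and the log2 fold change 1.27 ± 0.12 (SE). AQP7 lies on chromosome 9 (33383179 to 33402682, minus strand). Of the 50-base stretches in its annotated transcripts, 7.90% also occur in transcripts of 12 other genes, 5 of them named AQP7 pseudogenes, so its level carries some uncertainty from reads that fit several copies.

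**Figure D1:**
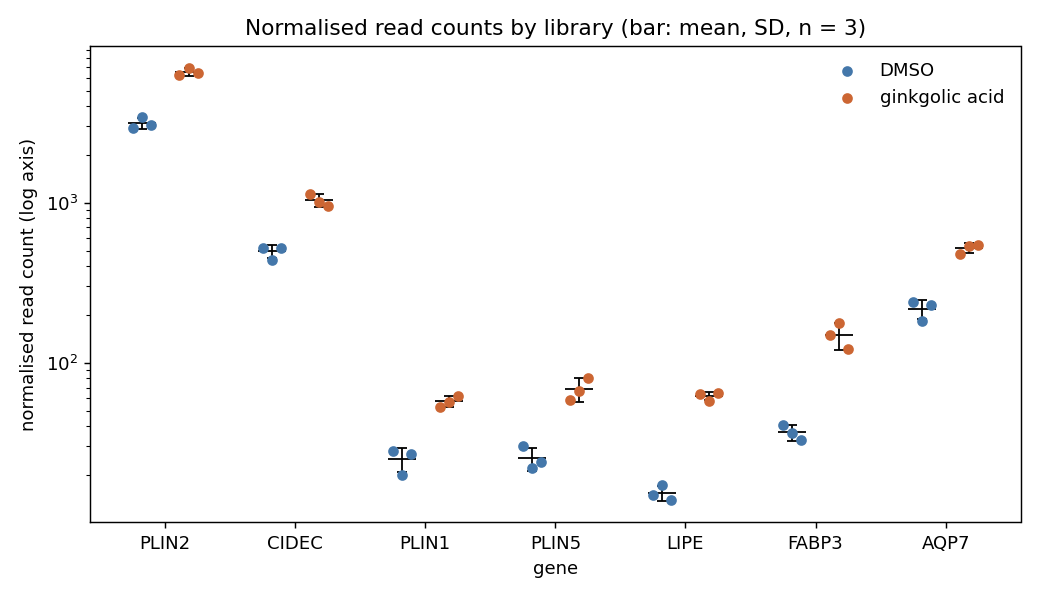
Normalised read counts (vertical log axis) of the 7 genes in each of the 3 DMSO and 3 ginkgolic acid libraries, with the mean and SD of each group as black bars. In all 7 genes every ginkgolic acid point lies above every DMSO point, and PLIN2 lies highest at 2917 to 6986.

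In all 7 genes the lowest ginkgolic acid library was above the highest DMSO library. The same held for 61.5% of the table's 403 genes, which had been chosen for their difference, so nothing about these genes follows from that count. The median fold of means was 2.40 for the 7 members, 2.54 for the 253 higher genes of the table and 2.17 for all 403. By the authors' log2 fold change FABP3 and LIPE ranked 20th and 21st among the 253 higher genes, whereas CIDEC ranked 231st and PLIN2 227th.

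LIPE and FABP3 had folds of means near 4, whereas the other 5 genes had folds between 2.08 and 2.70. Relative to the DMSO mean, the ginkgolic acid libraries lay between 3.30 and 4.85 for FABP3 and between 3.74 and 4.22 for LIPE. None of the libraries of the other 5 genes reached 3.30, the highest being PLIN5 at 3.19 in replicate 3. For CIDEC that range was 1.93 to 2.29, for PLIN2 2.004 to 2.23, for PLIN1 2.12 to 2.49 and for AQP7 2.20 to 2.52, so these 4 overlapped in part. The log2 fold change of LIPE exceeded that of PLIN2 by 0.88 ± 0.23 (SE, from the SEs of both genes taken as independent). Both genes come from the same libraries, and their log2 difference within a library had a pooled SD of 0.13 between libraries of a group. Scaling the libraries instead by median ratios within the table, whose genes are mostly higher ones, moved the median log2 fold change of the table by -0.89. It left PLIN2 at 0.17, CIDEC at 0.15, PLIN1 at 0.30 and PLIN5 at 0.52, none of them called higher by limma at an adjusted p under 0.05. LIPE (1.08), FABP3 (1.09) and AQP7 (0.37) were called, as were 15.1% of the table's genes, and since the members were taken from called genes nothing is read from these counts or from the signs.

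**Figure D2:**
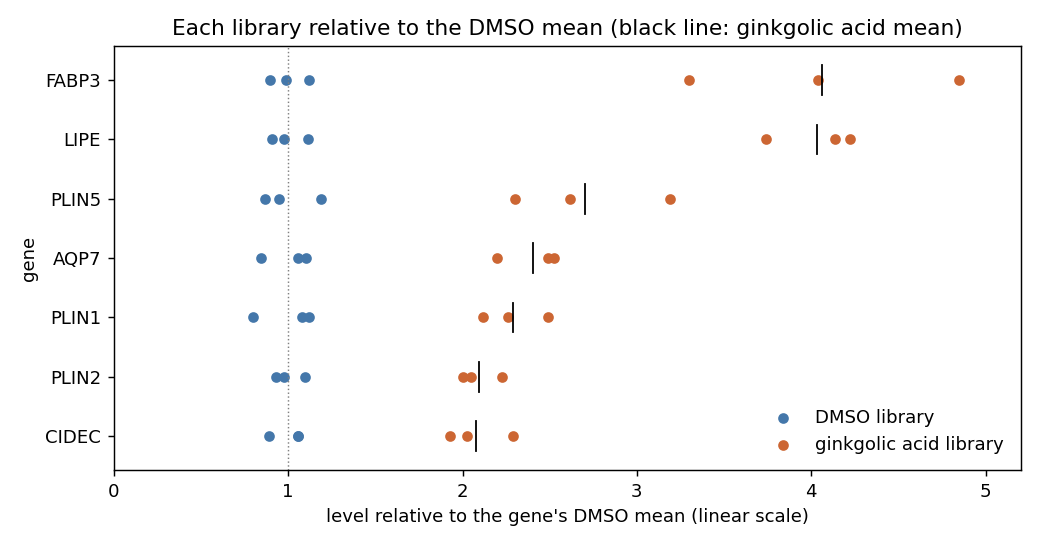
Level of each library divided by the DMSO mean of the same gene (horizontal linear axis), for 3 DMSO and 3 ginkgolic acid libraries per gene, with the ginkgolic acid mean as a black line. The ginkgolic acid libraries of LIPE and FABP3 lie at 3.30 to 4.85 and those of the other 5 genes at 1.93 to 3.19.

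Levels of different genes were compared per kilobase of exonic length. With DMSO the order was PLIN2, CIDEC, AQP7, FABP3, PLIN1, PLIN5 and LIPE, from 617 down to 2.95 ± 0.31 (SD, n = 3) normalised reads per kilobase for LIPE. Most neighbours in that order had ranges that did not overlap. The exceptions were AQP7 (34.8 to 45.3) with FABP3 (32.1 to 40.0), and PLIN1 (5.27 to 7.38) with PLIN5 (4.55 to 6.24).

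With ginkgolic acid the upper end kept its order and the lower end closed up. PLIN2 reached 1291 ± 72.7 and CIDEC 536 ± 48.5 normalised reads per kilobase. FABP3, at 118 to 174, now lay above AQP7, at 90.6 to 104, in all 3 libraries, whereas AQP7 had been higher in DMSO replicates 1 and 3. That swap rests on the lengths used, 1026 bases for FABP3 and 5253 for AQP7, the latter a union over 19 annotated transcripts. In normalised read counts AQP7 was above FABP3 in every library, at 476 to 547 against 121 to 178 with ginkgolic acid. At the bottom PLIN1 (14.0 to 16.4) overlapped PLIN5 (12.1 to 16.8), and PLIN5 overlapped LIPE (11.1 to 12.5). LIPE thus went from a level below every PLIN5 library to one that overlapped the range of that gene. Its place below PLIN1 with ginkgolic acid rests on the lengths used. In normalised read counts LIPE (57.6 to 64.9) and PLIN1 (53.0 to 62.3) overlapped there.

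**Figure D3:**
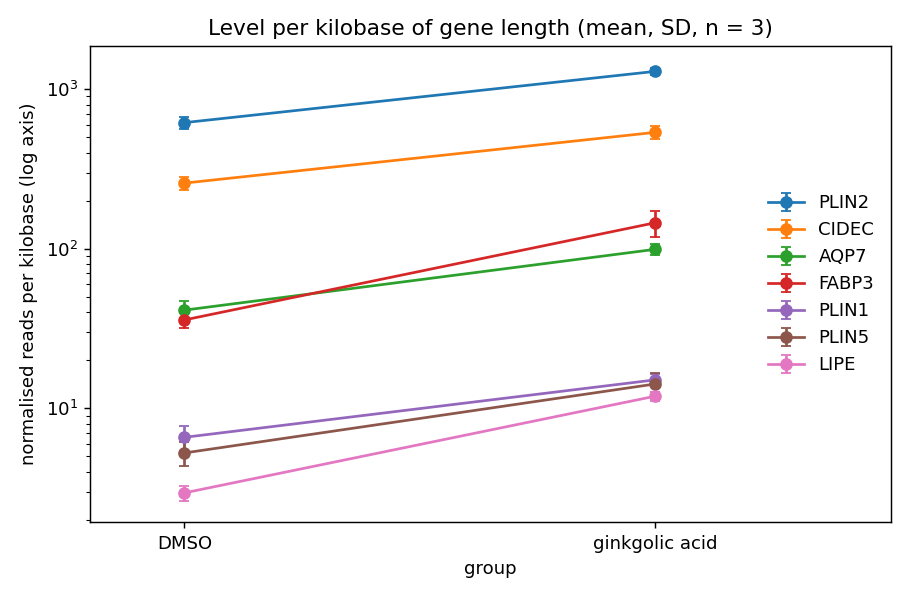
Mean level of each gene per kilobase of gene length (vertical log axis) in the DMSO and ginkgolic acid groups, with SD over 3 libraries. The lines of FABP3 and AQP7 cross, from 35.8 and 41.2 with DMSO to 145 and 99.1 with ginkgolic acid, and LIPE goes from 2.95 to 11.9. The crossing rests on the division by length, before which AQP7 is above FABP3 in both groups.

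The summed level of the 7 genes per kilobase was 966 ± 20.3 with DMSO and 2113 ± 92.1 with ginkgolic acid (SD, n = 3 each). PLIN2 made up 58.8% of the increase, CIDEC 24.3%, FABP3 9.56% and AQP7 5.05%, while PLIN1, PLIN5 and LIPE each gave under 1% (0.741%, 0.781% and 0.781%). By share of the sum, the 4 coat genes went from 91.7% ± 0.948 to 87.9% ± 0.771, and the values did not overlap (90.7% to 92.6% against 87.0% to 88.4%). LIPE, FABP3 and AQP7 together correspondingly went from 8.29% to 12.1%, on this per-kilobase scale mostly through FABP3. LIPE alone went from 0.306% ± 0.0274 to 0.566% ± 0.0592. FABP3, with the shortest exon length of the 7, went from 3.71% ± 0.458 to 6.85% ± 1.02 of the sum per kilobase. AQP7 took 4.28% ± 0.663 and then 4.70% ± 0.410 per kilobase, a difference smaller than the SD of the DMSO libraries. Without division by length the shift was smaller, with the coat genes at 93.2% and 91.3% and FABP3 at 0.932% and 1.76%. PLIN2 then made up 79.3% and 77.6% of the sums, CIDEC 12.6% and 12.2% and AQP7 5.51% and 6.16%. LIPE was then at 0.389% and 0.736%, and FABP3 no longer gave most of the shift. The contributions to the increase given above likewise depend on the lengths used.

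PLIN2 dominates these sums, so the shares were also taken without it. The remaining coat genes then made up 77.1% ± 1.10 with DMSO and 68.8% ± 2.86 with ginkgolic acid (SD, n = 3 each). CIDEC accounted for 73.7% ± 1.17 and 65.2% ± 3.03 of that smaller sum. LIPE went from 0.856% ± 0.173 to 1.46% ± 0.160 of it.

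The level of LIPE relative to single coat genes can be read from ratios within a library, which do not depend on the size factors. Other lipase genes, such as PNPLA2 and MGLL, were not in the table, so total lipase message is unknown in both groups. For every 1000 units of PLIN2 level per kilobase the DMSO libraries held 5.03, 4.88 and 4.47 units of LIPE, and the ginkgolic acid libraries 9.88, 8.05 and 9.86. The groups did not overlap. PLIN2 still exceeded LIPE by 109 ± 13.3 to 1 with ginkgolic acid, compared with 209 ± 13.0 to 1 with DMSO (SD, n = 3 each). CIDEC over LIPE went from 88.4 ± 16.7 to 45.1 ± 4.63. PLIN5 over PLIN1 was 0.803 ± 0.0890 with DMSO and 0.938 ± 0.0780 with ginkgolic acid. All 3 ginkgolic acid values were above all DMSO values, although the highest DMSO value (0.864) and the lowest ginkgolic acid value (0.867) almost touched. Both genes rest on only 21 to 30 inferred reads per DMSO library, and PLIN5 shares exonic bases with AC011498.4. No difference is therefore read from this ratio. Messenger level says nothing of protein amount, of phosphorylation of LIPE or PLIN1, or of lipolytic rate.

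**Figure D4:**
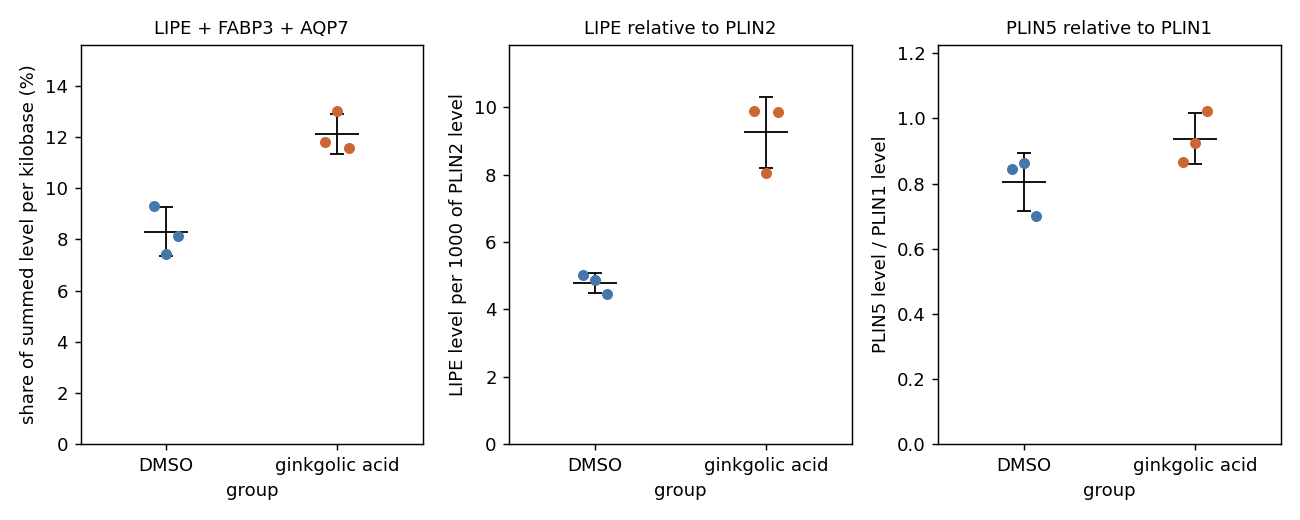
Share of LIPE, FABP3 and AQP7 in the summed level per kilobase of the 7 genes (left, percent), LIPE level per 1000 of PLIN2 level (middle) and PLIN5 level over PLIN1 level (right), as points per library with mean and SD of each group. The left and middle panels separate clearly, at 8.29% and 12.1% and at 4.79 and 9.27. Most of the difference in the left panel is that of FABP3, which rests on the division by length. The right panel separates narrowly and on low reads (0.803 and 0.938).

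Replicate spread set the precision differently for abundant and scarce members. For PLIN2 the coefficient of variation between libraries was 8.56% with DMSO and 5.63% with ginkgolic acid, where counting of the inferred reads alone would give 1.77% and 1.23%. CIDEC (9.59% and 9.04%) and AQP7 (13.6% and 7.50%) likewise spread beyond counting. PLIN1 and LIPE spread less than counting alone would give in both groups, for example 10.5% against 25.3% for LIPE with DMSO, so their precision is limited by reads. FABP3 lay below counting with DMSO (11.1% against 16.4%) and above it with ginkgolic acid (19.1% against 8.24%). PLIN5 did likewise, with 16.7% against 19.7% for DMSO and 16.6% against 12.0% for ginkgolic acid.

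**Figure D5:**
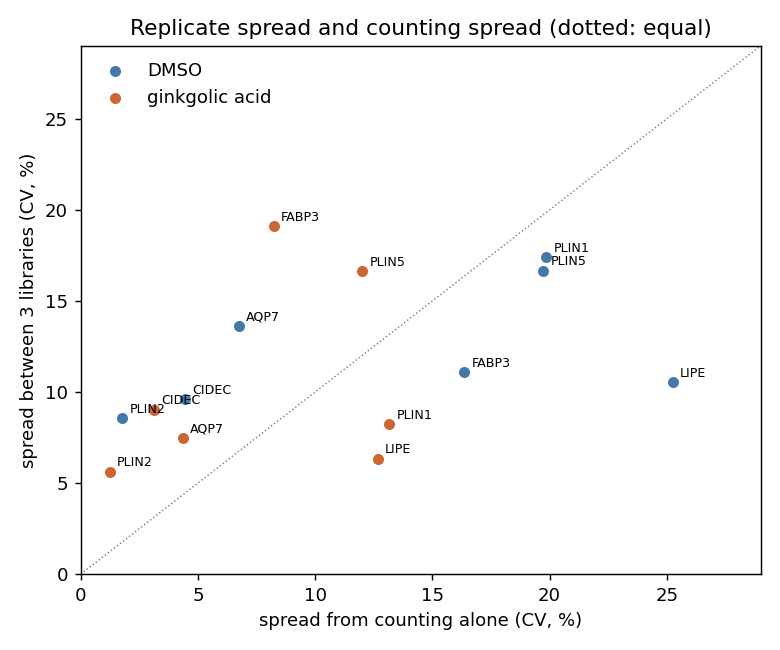
Coefficient of variation between the 3 libraries of a group (vertical, percent) against that expected from read counting alone (horizontal, percent), per gene and group. PLIN2, CIDEC and AQP7 lie above the dotted line of equality in both groups, and FABP3 with ginkgolic acid stands at 19.1% against 8.24%.

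The wider pathway was looked up in lists. Of 28 further coat, lipolysis and droplet genes, among them PLIN3, PLIN4, CIDEA, CIDEB, PNPLA2 (adipose triglyceride lipase), its activator ABHD5, its inhibitor G0S2 and MGLL, 0 were in the table. The same was true of 22 genes of triglyceride synthesis and droplet assembly and of 28 genes of fatty acid uptake, carriers and glycerol channels. Of 22 nuclear receptors and adipogenic factors 1 was in it: CREB3L3, a liver transcription factor of fasting, read 242, 219 and 222 with DMSO and 747, 685 and 657 with ginkgolic acid. Genes outside the table were not analysed here, so these counts do not show that they were unchanged. Of 12 hepatocyte markers ALB and CYP2E1 were in the table, at 19.1 ± 5.97 and 9.48 ± 1.77 with DMSO and 5.30 ± 3.83 and 24.3 ± 0.350 with ginkgolic acid. None of 4 hepatocellular carcinoma and fetal liver, 8 adipocyte, 5 fibroblast, 4 leukocyte or 3 endothelial markers was, so the labelled cell type could not be checked further. In such bulk samples a change in cell makeup and a change in RNA per cell cannot be told apart.

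Profiles most like each member were sought among the 169 genes outside the members with a mean of at least 50 normalised read counts. Likeness was the root mean square difference over the 6 libraries between log2 values, each taken relative to its gene's DMSO mean. FABP3 was nearest to PDK4 (0.18), the kinase that shuts pyruvate dehydrogenase. LIPE was nearest to CDA (0.13), cytidine deaminase, and ACSS2 (0.18), which activates acetate. AQP7 was nearest to GFPT2 (0.054) and MCEE (0.061), PLIN1 to KIAA1024 (0.052) and GFPT2 (0.099), and PLIN5 to TNXB (0.089) and GFPT2 (0.12). The member AQP7, left out of this search, was nearer to PLIN1 (0.081) than GFPT2 was. PLIN2 was nearest to SCUBE1 (0.042) and CNTD2 (0.056), and GSDMB (0.10) was among the nearest to CIDEC. With 6 libraries in 2 groups this measure mostly matches genes of equal fold change, and each named gene had been selected in the same comparison.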

How the data were processed

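RNA was extracted with TRIzol and sequenced. Tools named in the submitters' processing notes are DESeq2 1.20.0 (by the authors), featureCounts 1.5.0-p3, HISAT2 2.0.5, fastp and CASAVA 1.8, on build hg38; the sources used here give no settings. Per the file headers, the deposited table gives a signal per library, group means, a log2 fold change, a p-value and an adjusted p-value. All values of a library were whole multiples of 1 step (tolerance 1e-06), as counts divided by a size factor would be (factors 0.921 to 1.14). A table headed FPKM repeats these values within 4.6e-08 and was not used.

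Positions equalled those of GENCODE 29 for 403 genes, and the deposited lengths of the members equalled their exon unions. Groups were compared with limma 3.58.1 (R 4.3.3, trend prior) on log2(value + 1) over all 403 genes with a mean of at least 1, with Benjamini-Hochberg adjustment at 0.05; folds on this scale understate changes of low genes. The fit was tested on simulated data. Genes named with values are the members, genes of 4 pathway lists and of the cell type markers found in the table, the 2 profiles most like each member (some are not reported here) and overlapping genes. Members and lists were chosen with earlier results of these data known. Python 3.11.15, numpy 2.4.6, pandas 2.3.3 and matplotlib 3.10.9 were used.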

Additional observations from a re-analysis of the deposited data

How the results depend on the processing

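Alternatives changed the pseudocount, filter, scaling, variance prior, replicate block and set of libraries. No log2 fold change of a member changed sign, which their selection above 1 in the authors' deposited table largely fixes. Rescaling by the median of ratios over the table centres libraries on changed genes by its construction. It gave 0.17 for PLIN2, 0.15 for CIDEC, 0.30 for PLIN1, 0.52 for PLIN5, 1.08 for LIPE, 1.09 for FABP3 and 0.37 for AQP7, with 3 members called higher in place of 7 and 61 table genes in place of 253. A pseudocount of 5 gave 1.72 for LIPE and 0.65 for its difference from PLIN2, since it damps low counts. The SEs of most members depend on the variance prior. That prior was estimated only over the table's genes, all of them called by the authors, so the SEs carry that selection and may be too small. Without its trend they were 0.14 for PLIN2, 0.15 for CIDEC, 0.16 for AQP7 and 0.19 for FABP3. Those of PLIN1, PLIN5 and LIPE were then 0.18, 0.19 and 0.15. Coat shares without division by length were 93.2% with DMSO and 91.3% with ginkgolic acid, and without PLIN2 77.1% and 68.8%. Without each library in turn, 7 members and 250 to 253 of the 403 table genes were called higher, so that count says nothing of the members, and log2 fold changes ran from 1.02 to 1.14 for PLIN2, 0.97 to 1.11 for CIDEC, 1.03 to 1.26 for PLIN1, 1.28 to 1.52 for PLIN5, 1.88 to 2.02 for LIPE, 1.85 to 2.12 for FABP3 and 1.15 to 1.34 for AQP7. Deviations of same-numbered libraries correlated at -0.03, 0.00 and -0.07 across genes, and the numbers were not taken to pair libraries. These correlations cover low genes too, where counting spread could hide a pairing, so they do not exclude one. A replicate block lowered the SE of PLIN2 (0.046 in place of 0.068) and CIDEC (0.094 in place of 0.101) and raised that of the other members. With that block 7 members were called higher, as were 253 of the 403 genes. Fits of count models to recovered reads had been planned and were not run, because this selected table has too few low values to establish the reads firmly enough for a count test. Low reads limit LIPE, PLIN1 and PLIN5.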
